A study of Homo sapiens with 15 samples.

Results

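The comparison described here is cytarabine at 1 µM against untreated control in Molm-13 cells, 3 libraries of each, and its members are all genes with enough reads to test. These were 12355 of the 20375 genes in the deposited table, chosen by a filter on low counts and not by how they changed. The 6 libraries belong to a set of 15, in 5 groups of 3, of poly(A) RNA that the sample labels give to this line. Control cells were cultured for 4 days without drug, and the treated cells stood in 1 µM cytarabine for the same 4 days. A further group, with 0.5 µM for 4 days, is compared below only to ask which changes were larger or smaller at the higher dose. All of these groups share the line, the serum-containing medium and the time in culture, and the labels give their genotype as wild type. The remaining groups had cytarabine followed by another agent and enter no comparison. Like the 0.5 µM group, they enter the low-count filter, the scaling of libraries and the shared estimate of spread. The treatment protocol names THP-1 cells for them, against their other labels. Fitted with control and 1 µM alone, 12048 genes were tested, of which 4639 were higher and 4702 lower.

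Molm-13 is an established human line of monocytic acute myeloid leukemia (AML). It carries an internal tandem duplication of FLT3, which leaves this receptor kinase active without its ligand, and a fusion of KMT2A with MLLT3, which keeps HOXA genes and MEIS1 active. Cytarabine is an analog of deoxycytidine and a mainstay of AML treatment. It enters cells through nucleoside transporters and is phosphorylated stepwise, first by deoxycytidine kinase, to a triphosphate that DNA polymerases insert and then extend poorly, so replication forks stall. Stalled forks activate the kinase ATR, and broken DNA activates ATM and p53, which slow the cell cycle, start repair or end in apoptosis. Monocytic leukemia cells held in S phase by nucleoside analogs are also known to take on features of mature monocytes and macrophages. A single line was studied, and whether replicate libraries stem from separate cultures is not stated. The p-values therefore measure the scatter among these libraries alone, and that scatter may be technical.

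Total counts ranged from 12475638 to 16965626 reads per library. The first principal component of log2 CPM (a gene's counts scaled to the library total) accounted for 87.6% of their variance, with control and treated libraries at its opposite ends. Mitochondrially encoded genes took 4.5 to 4.75% of counts in control and 6.64 to 6.72% after 1 µM. No pair of replicates agreed within sampling noise, and the chi-square per gene between replicates was 1.76 to 2.39 in control and 3.37 to 3.64 at 1 µM, so the treated libraries spread more. Of 14 markers listed for the line, 10, among them PTPRC (CD45), CD33, CEBPA, SPI1, HOXA9 and MEIS1, stood at 24.5 TPM (which also scales by transcript length) or more in all 6 libraries. ANPEP (CD13) stayed under 1 TPM, CD14 was under 1 TPM and ITGAM (CD11b) 3.09, 2.86 and 3.08 TPM in control, and MPO stood at 12.2, 12.7 and 11.9 TPM in control and 2.47, 1.77 and 3.41 TPM at 1 µM. Of 10 T and NK cell markers 6 could be tested, of which 3 rose and 3 fell, among them CD4, which monocytes share. TRAC, a T cell receptor constant chain, stood at 19 ± 0.588 to 6.04 ± 0.254 CPM (mean ± SD, n = 3 per group, here and below for CPM), and NKG7, a granule protein of cytotoxic cells, at 19.7 ± 1.81 to 59.2 ± 2.05 CPM. Summed over the 10, the level was 240.5, 239 and 246 TPM in the control libraries and 401, 393 and 409 TPM at 1 µM. Within this sum CD4 held 126, 124 and 125 TPM in control and 227, 227 and 237 TPM at 1 µM. GNLY and NKG7 rose too, whereas CD3D, TRAC and NCAM1 fell. Of the other marker lists few members could be tested. EPOR of red cell precursors and BANK1 of B cells fell, and CD79A did not pass. Of 6 megakaryocyte markers 2 rose, GP1BA to 7.95 CPM. Of 12 genes on the stromal and epithelial list 2 rose, KRT8, at 1.37, 1.43 and 1.88 TPM at 1 µM, and PECAM1, to 254 CPM. PECAM1, which is not specific to stroma or epithelium, already stood at 45.9, 37.6 and 43.9 TPM in control. Most markers of other lineages were at or near 0 in all 6 libraries, among them MS4A1, EBF1 and VPREB1 of B cells, HBA1, KLF1 and GATA1 of red cell precursors, PF4 and PPBP of platelets, and DCN and EPCAM of stroma and epithelium.

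By the quasi-likelihood test of edgeR, 9375 of the 12355 genes (75.9%) differed between 1 µM and control at a Benjamini-Hochberg adjusted p under 0.05. Of these 4850 were higher (39.3% of those tested) and 4525 lower (36.6%), so every count of list members below stands against a background in which about 3 in 4 genes passed. "Rose" and "fell" are used only of genes that passed. A ± after a log2 fold change or difference is its standard error from the edgeR fit, not an SD. At least 2-fold differences were fewer, 2956 genes (23.9%), of which 2001 were higher (16.2%) and 955 lower (7.73%). The median log2 fold change of all genes was 0.03 and the median size was 0.51, and -1.25 and 2.6 bounded the middle 90% of genes. The groups' 3 values did not overlap for 9615 genes (77.8%). Of all genes tested, 1144 had under 1 CPM in control. Such genes had little room to fall, so counts of rises among them are descriptive. All levels are shares of a library, and in bulk RNA fewer cells of a kind and less RNA per cell cannot be told apart.

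**Figure D1:**
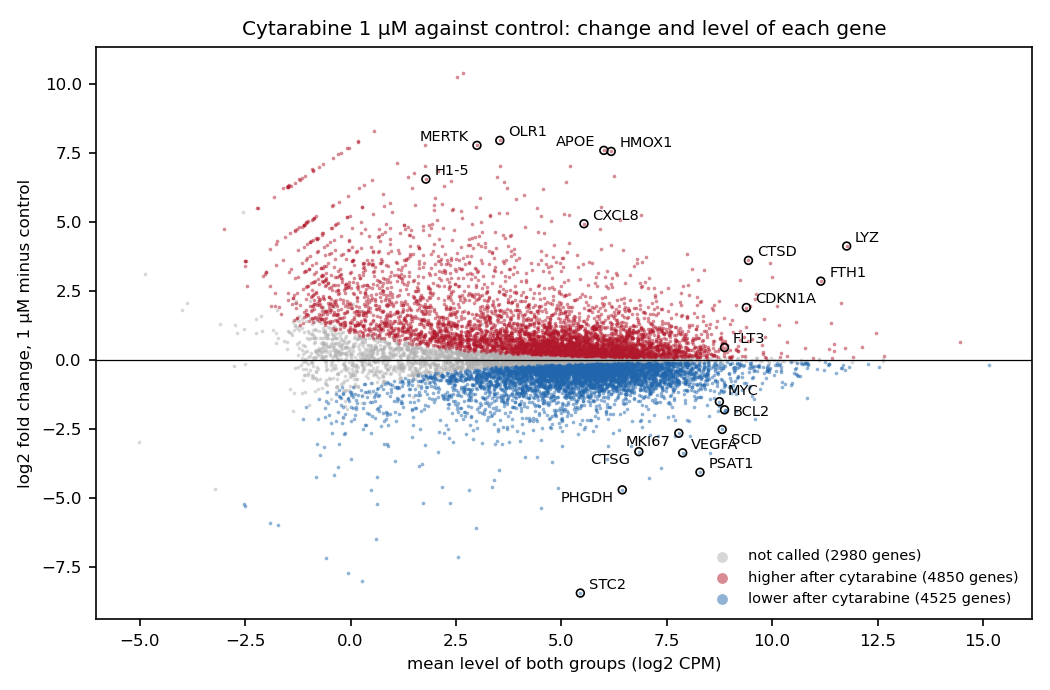
Each point is 1 of the 12355 genes tested, with its mean level in the control and 1 µM libraries on the x axis (log2 CPM) and its log2 fold change, 1 µM minus control, on the y axis; red and blue points passed an adjusted p of 0.05 and gray ones did not. Circled genes run from STC2 at -8.43 to OLR1 at 7.94, and all but MKI67 are described in the text. OLR1 was close to silent in control, so its fold change depends on few counts.

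The largest rises, among genes of 10 CPM or more in either group and without overlap, were in genes close to silent in control. A4GALT, which makes the glycolipid Gb3, had no control count, and 9.28, 13.1 and 12.1 CPM after treatment. This is at least 181-fold higher when 3 counts over the control group are taken as the floor. DCANP1, a gene of dendritic cells, also had no control count and 8.71, 9.43 and 19.8 CPM after treatment, which is at least 199-fold higher on the same floor. Its treated replicate 3 stood far above the other two. MERTK, a receptor kinase that takes up dying cells, had 3 control counts in all and 15.4, 15.7 and 16.6 CPM at 1 µM, a ratio whose 95% counting interval ran from 85.1 to 1214. OLR1, a receptor for oxidized lipoprotein, stood at 0.0617, 0.143 and 0.0588 CPM in the control libraries and 24, 22.9 and 22.7 CPM at 1 µM. ADAMDEC1, a protease of macrophages, rose 134-fold (0.546 ± 0.126 to 73.1 ± 2.97 CPM), and ZNF366, a zinc finger protein of dendritic cells, went from 0.165 ± 0.177 to 23.1 ± 1.63 CPM. HMOX1 and APOE, described below with their pathways, complete the 8. These 8 genes include receptors, lipid carriers and enzymes known from macrophages and dendritic cells.

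The largest falls by the same rule were in STC2, SLC6A9, INHBE, PPM1E, ULBP1, PHGDH, SHISA2 and CHAC1. STC2, a secreted glycoprotein induced by stress, stood at 88.1, 87.2 and 86.4 CPM in the control libraries and 0.191, 0.24 and 0.311 CPM at 1 µM. SLC6A9, a glycine transporter, stood at 13, 10.4 and 11.4 CPM in control, and its 3 treated libraries held 3 counts in all. INHBE, a subunit of activin E, fell from 15.5 ± 1.4 to 0.226 ± 0.0925 CPM. PPM1E, a protein phosphatase, fell 41-fold and SHISA2, a membrane adaptor, 25.4-fold. STC2, SLC6A9, INHBE, PHGDH and CHAC1 are members of the amino acid response list below, and ULBP1 is a ligand for the NK cell receptor NKG2D.

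DNA synthesis genes were lower as a body. Of 50 listed replication genes, all tested, 45 fell and 3 rose, with a median log2 fold change of -0.76 against 0.03 for all genes. CDT1, which loads the helicase on origins, stood at 33.5, 33.3 and 36 CPM in the control libraries and 8.2, 6.71 and 8.54 CPM at 1 µM. Its treated values lay far below its control values, a log2 fold change of -2.13 ± 0.102 (edgeR adjusted p = 3.85e-16). Among helicase subunits, MCM6 and MCM7 had log2 fold changes of -1.65 and -1.54. The primase subunit PRIM1 fell from 53.3 ± 1.18 to 17.8 ± 2.55 CPM while its partner PRIM2 had 29.7 and 31.5 CPM and did not pass. The firing factors CDC45, CDC7 and GINS1 fell too, with -1.34, -1.54 and -1.5.

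The 3 replication genes that rose were POLD4, PCNA and ORC4, the last by 0.17 on the log2 scale, a call lost without 1 µM replicate 1 (0.13) and a direction that turned in limma-trend on TPM (-0.25). POLD4, the smallest subunit of polymerase delta, rose from 9.56 ± 0.955 to 26.1 ± 6.36 CPM, while the subunits POLD1, POLD2 and POLD3 of the same enzyme fell, with log2 fold changes of -0.44, -1.3 and -0.30. PCNA, the sliding clamp and also a p53 target, held 324, 311 and 325 CPM in the control libraries and 416, 410.4 and 395 CPM at 1 µM. All 3 treated values were above all 3 control values, a log2 fold change of 0.35 ± 0.0348 (edgeR adjusted p = 1.44e-09). PCNA thus had the highest level of the list per transcript length, 463 TPM in control and 586 TPM at 1 µM, and moved against most of it.

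Most genes of nucleotide supply fell. Of 24 genes 20 fell, 1 rose and 3 did not pass (median -0.80). DTYMK, thymidylate kinase, fell 2.95-fold, PAICS of purine synthesis 2.71-fold and CAD, which opens pyrimidine synthesis, 2.39-fold. Ribonucleotide reductase makes deoxynucleotides from a large subunit, RRM1, and a small one that is either RRM2 or its p53-induced form RRM2B. RRM1 fell from 98.3 ± 2.41 to 59.1 ± 4.62 CPM and RRM2 from 106 ± 0.959 to 58.7 ± 4.91 CPM, while RRM2B rose from 548 ± 15.6 to 917 ± 18.1 CPM. The libraries showed 565, 543 and 535 CPM in the control libraries and 897, 922 and 932 CPM at 1 µM, with no overlap, a log2 fold change of 0.74 ± 0.0347 (edgeR adjusted p = 2.01e-16).

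Genes that handle cytarabine itself moved both ways. Of 17 listed, 14 were tested, 6 rose and 7 fell, against 39.3% of all genes higher and 36.6% lower. On the side of uptake and activation, the transporter SLC29A1 rose 1.22-fold and SLC29A2 fell 1.97-fold. DCK, the kinase of the first step, stood at 99.5, 88.7 and 92.8 CPM in the control libraries and 51.6, 47.1 and 46.4 CPM at 1 µM. All 3 treated values lay below the control values, a log2 fold change of -0.95 ± 0.0657 (edgeR adjusted p = 8.19e-13). NME1, one of the kinases of the last step, fell 2.13-fold and its relative NME2, at 601 TPM the highest of the list at 1 µM, fell 1.14-fold, while CMPK1 of the middle step had 267 and 278 CPM and did not pass. On the side of inactivation 3 of 5 genes rose and 2 fell. SAMHD1, which hydrolyzes the triphosphate, stood at 116, 123 and 116 CPM in the control libraries and 463, 478 and 477 CPM at 1 µM. It was 3.99-fold higher at 1 µM, a log2 fold change of 2.0 ± 0.038 (edgeR adjusted p = 7.6e-25), and the largest change of the list above 5 CPM. NT5C2, a nucleotidase, rose 1.13-fold, and CDA, the deaminase, went from 0.0402 ± 0.0348 to 0.46 ± 0.309 CPM. The falls were in DCTD, which deaminates the monophosphate, by 0.55 on the log2 scale, and in the nucleotidase NT5C3A, by 0.20, a call lost in 5 of 13 alternatives (other tools, filters, samples in the fit or a library left out), among them without control replicate 1 or 2 or 1 µM replicate 1 or 3 (-0.21 to -0.16). The exporters ABCC10 and ABCC5 rose 1.99- and 1.55-fold and ABCC4 fell 1.37-fold.

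Of 36 cell cycle control genes 29 fell and 3 rose. The cyclins of mitosis CCNB1 and CCNB2 fell 4.45- and 4.43-fold, CDK1 fell 3.53-fold, and FOXM1 and E2F1, which switch on mitosis and S phase genes, fell 3.78- and 2.74-fold. The 3 that rose were the inhibitor CDKN1A, the G1 cyclin CCNE1 (8.54 ± 0.936 to 17.2 ± 1.04 CPM) and RBL2, a pocket protein of quiescent cells (log2 fold change 0.09 ± 0.0392, a call lost in 8 of 13 alternatives, among them DESeq2, the 2 groups alone, no filter, and without control replicate 1 or 2 or 1 µM replicate 2 or 3, at 0.03 to 0.09). CCNE2, the close relative of CCNE1, had 27.9 and 26.9 CPM and did not pass.

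Mitosis genes fell with a single exception. Of 59 listed genes, all tested, 58 fell and 1 rose, and 50 fell at least 2-fold (median -1.75). Many such genes carry a cell cycle homology region in their promoter, a TTTGAA element through which the DREAM complex holds them off in arrested cells. In RefSeq's GRCh38.p14 table of promoters (250 bases before to 50 after a start), 51 of the 59 genes matched, with 60 promoters. TTTGAA stood on either strand in 37 of these (61.7%), against 11% of the promoters of all genes tested and 15.2% of all in the table. The 250 bases before the start of CDC20 (chr1:43358731-43358980, plus strand) and CENPA (chr2:26785806-26786055, plus strand), the listed genes of largest fall, are shown because both hold the element, in capitals (TTCAAA is its reverse complement):
CDC20: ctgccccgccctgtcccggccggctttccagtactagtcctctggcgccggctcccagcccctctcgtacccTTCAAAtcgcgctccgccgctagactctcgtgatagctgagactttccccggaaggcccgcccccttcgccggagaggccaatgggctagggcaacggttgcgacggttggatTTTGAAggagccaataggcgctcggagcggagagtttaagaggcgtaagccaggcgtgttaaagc
CENPA: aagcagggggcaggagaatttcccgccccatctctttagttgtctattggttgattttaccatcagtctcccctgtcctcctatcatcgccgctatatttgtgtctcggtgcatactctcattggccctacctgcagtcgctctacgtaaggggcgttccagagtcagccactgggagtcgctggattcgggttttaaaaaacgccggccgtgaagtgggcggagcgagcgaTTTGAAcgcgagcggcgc
A match describes these letters and does not show that a factor binds there.

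CDC20, which activates the anaphase-promoting complex, stood at 62.2, 54.7 and 57.5 CPM in the control libraries and 6.61, 6.71 and 6.76 CPM at 1 µM. The groups were far apart and the treated libraries close together, a log2 fold change of -3.12 ± 0.0998 (edgeR adjusted p = 5.94e-20). CENPA, the histone of the centromere, fell from 19.7 ± 0.461 to 2.53 ± 0.864 CPM, CENPF of the outer kinetochore 6.64-fold, and the kinases PLK1 and AURKB 6.01- and 5.65-fold. BUB3, a spindle checkpoint protein and the highest of the list per length at 94.2 TPM after treatment among those that fell, fell 1.74-fold. TACC3, which stabilizes spindle microtubules, was the exception: it stood at 67.6, 67.8 and 66.2 CPM in the control libraries and 87, 91.1 and 90.8 CPM at 1 µM, all treated values above all control values (log2 fold change 0.41 ± 0.0552, edgeR adjusted p = 2.12e-07).

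Checkpoint and repair genes fell in 30 of 35 cases and rose in 3. The apical kinases differed: ATM, which answers broken ends, rose from 299 ± 8.91 to 483 ± 5.52 CPM, while ATR, which answers stalled forks, had 67 and 62.3 CPM and did not pass. Downstream, CHEK1, the kinase under ATR, fell 3.63-fold and CHEK2, the kinase under ATM, rose by 0.25 on the log2 scale. The CHEK2 call was lost without control replicate 2 or 3 or 1 µM replicate 2, at 0.16 to 0.23, in DESeq2 (0.24), without the filter and in limma-trend. HUS1 of the checkpoint clamp was the remaining rise (1.29-fold, not called in limma-trend on TPM). BRCA1, which acts in recombination, fell 2.27-fold and TIMELESS of the fork protection complex 2.43-fold. All 11 Fanconi genes fell, FANCI furthest at -1.24 on the log2 scale.

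Replication-dependent histone genes went the opposite way to most genes of S phase and mitosis above. Their mRNAs normally end in a stem-loop and lack a poly(A) tail, and the libraries were made from poly(A) RNA, so their counts show only transcripts that the oligo(dT) beads caught. Of 62 listed genes 53 were tested, 52 rose and none fell, the remaining gene being H4C15 (0.561 ± 0.798 to 1.91 ± 1.11 CPM). H4C15 was called higher in 6 of 13 alternatives, among them without control replicate 1 (log2 fold change 4.2) or 1 µM replicate 2 (2.11). As many as 39 of the 53 had under 1 CPM in control and passed the filter through the treated groups, so the count and the median of 3.62 (3.5 with genes without control counts at their bound) are given as description only. Summed over all 62 genes, the level was 165, 148 and 147 TPM in the control libraries and 888, 919 and 946 TPM at 1 µM. H1-5, a linker histone, stood at 0, 0.0716 and 0.118 CPM in control, 1.78, 1.0 and 1.3 CPM at 0.5 µM and 5.72, 7.51 and 7.3 CPM at 1 µM. H2BC12, the highest of the list per length, rose from 22.7 ± 1.9 to 80.5 ± 3.08 CPM and H2AC6 from 22.3 ± 0.739 to 108 ± 6.85 CPM. Close copies share sequence, so the split between single members is uncertain.

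The mRNAs of replacement histones do carry a tail. Of 15 genes for histone variants, chaperones and processing 13 fell and none rose. H2AZ1 stood at 184, 176 and 189 CPM in the control libraries and 87.7, 85.5 and 90.1 CPM at 1 µM, every treated value under every control value (log2 fold change -1.06 ± 0.0437). H2AX, the variant phosphorylated at breaks, fell from 22.8 ± 0.808 to 10.6 ± 1.43 CPM, H1-10 2.89-fold and MACROH2A1 1.23-fold. SLBP, the protein that binds the histone stem-loop and directs its processing, fell from 84.2 ± 2.96 to 49.3 ± 1.99 CPM (edgeR adjusted p = 5.52e-13), and LSM11 of the U7 particle that cuts histone mRNA fell 1.32-fold, while its partner LSM10 (15.7 and 14.1 CPM) did not pass. Whether these falls bear on the tailed histone transcripts was not tested. The CCAAT box, a common element of histone promoters, stood in 44 of 52 promoters of the list in the RefSeq table (84.6%), against 34.9% for all genes tested and 34.6% for the whole table. The 250 bases before the start of H1-5 (chr6:27867589-27867838, minus strand) and H2BC8 (chr6:26216689-26216938, minus strand), the named members of largest rise, are shown with CCAAT or its reverse complement ATTGG in capitals:
H1-5: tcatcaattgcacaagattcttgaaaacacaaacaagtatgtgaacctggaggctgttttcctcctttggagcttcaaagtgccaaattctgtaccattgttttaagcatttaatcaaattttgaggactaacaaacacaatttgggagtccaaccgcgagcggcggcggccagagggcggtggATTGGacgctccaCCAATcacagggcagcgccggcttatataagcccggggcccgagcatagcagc
H2BC8: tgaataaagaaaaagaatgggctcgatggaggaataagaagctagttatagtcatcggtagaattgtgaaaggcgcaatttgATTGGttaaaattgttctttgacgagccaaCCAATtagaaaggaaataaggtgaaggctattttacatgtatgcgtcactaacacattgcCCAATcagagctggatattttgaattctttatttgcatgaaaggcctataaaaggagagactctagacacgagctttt

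Targets of p53 rose in 20 of 30 cases and fell in 6 (median 0.73). CDKN1A, the p21 inhibitor of cyclin-dependent kinases, stood at 275, 282 and 293 CPM in the control libraries and 1071, 1033 and 1069 CPM at 1 µM. Its groups were far apart, a log2 fold change of 1.9 ± 0.0306 (edgeR adjusted p = 1.96e-26). The feedback genes MDM2, ZMAT3 and TP53INP1 rose 3.84-, 4.29- and 7.38-fold. GDF15, a stress cytokine, rose from 1.01 ± 0.157 to 10.1 ± 1.11 CPM. Among death genes, the receptor FAS rose 2.51-fold, the receptors TNFRSF10A and TNFRSF10B fell 1.38- and 1.13-fold, and of the p53-induced BH3 proteins PMAIP1 (NOXA) fell 1.71-fold and BBC3 (PUMA) had 21.7 and 20.7 CPM and did not pass. SESN2, the member that fell furthest, is also induced by ATF4 and stands in the amino acid list as well, whereas its relative SESN1 rose 1.82-fold.

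In the BCL2 family, which sets the threshold for apoptosis, 6 of 15 tested genes rose and 4 fell (all genes: 39.3% higher and 36.6% lower). BCL2, the inhibitor that venetoclax binds, stood at 740.1, 734 and 708 CPM in the control libraries and 201, 217 and 208 CPM at 1 µM. It fell 3.48-fold, with a log2 fold change of -1.8 ± 0.0347 (edgeR adjusted p = 9.81e-25). Its relatives MCL1 and BCL2A1 rose 1.22- and 2.22-fold, and BCL2L1 had 18.3 and 15.4 CPM and did not pass. Of the BH3-only proteins that antagonize them, BMF rose from 78.9 ± 1.07 to 208 ± 10.6 CPM and BCL2L11 (BIM) from 68.5 ± 4.34 to 138 ± 1.08 CPM, while HRK fell from 1.57 ± 0.464 to 0.253 ± 0.137 CPM, PMAIP1 (NOXA) from 59.2 ± 1.45 to 34.6 ± 1.62 CPM and BID from 55.2 ± 1.81 to 34.6 ± 1.85 CPM.

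**Figure D2:**
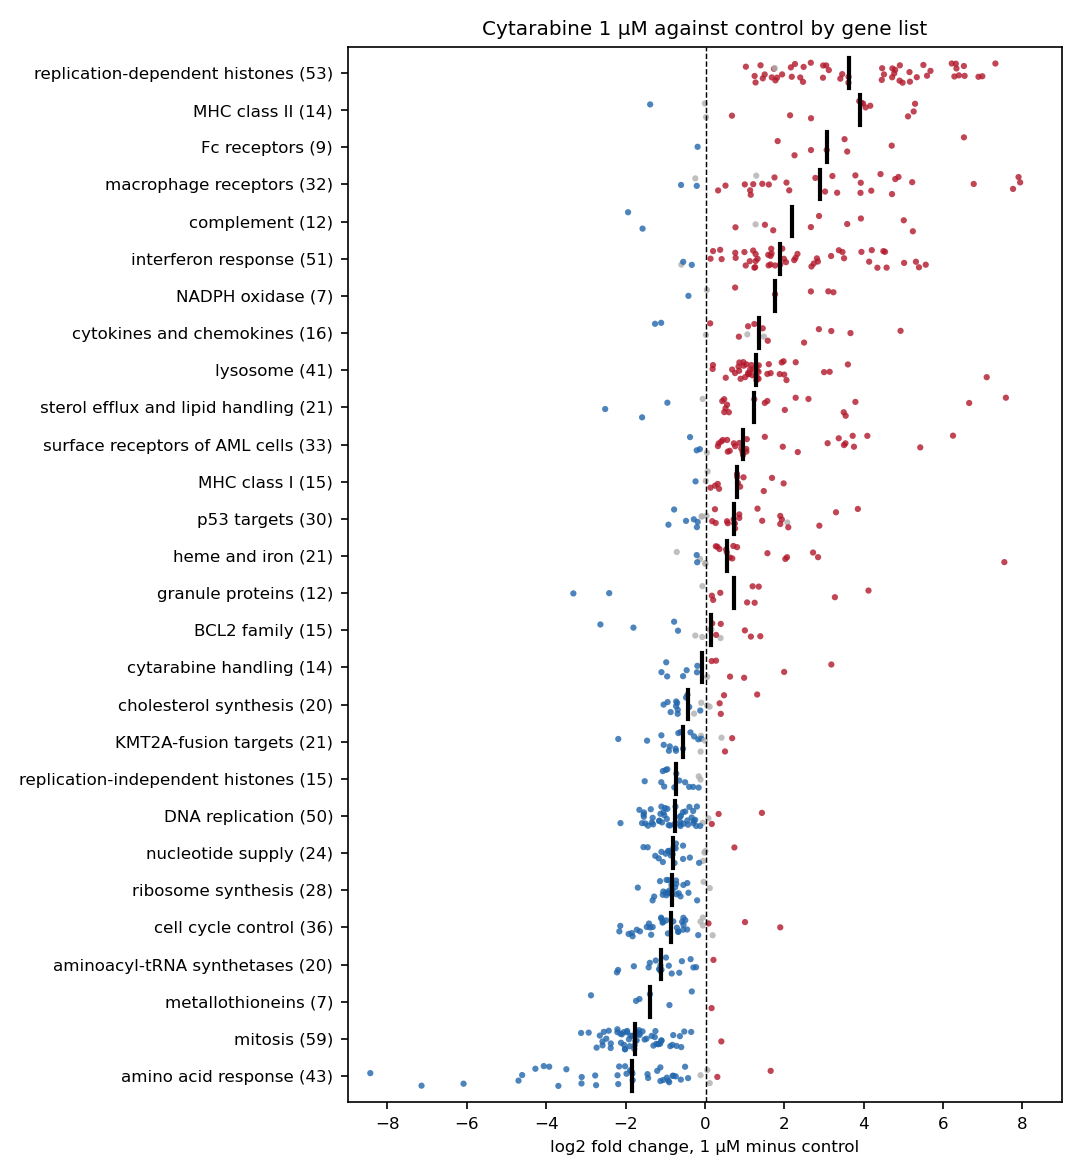
Each point is 1 tested member of a gene list, with its log2 fold change, 1 µM minus control, on the x axis; red and blue members passed an adjusted p of 0.05 and gray ones did not, black bars are list medians, the dashed line is the median of all genes (0.03) and numbers in brackets are tested members. The lists drawn are a selection. Marker lists and several others, among them leukocyte integrins, the MYC network, chaperones and glycolysis, are not drawn. The medians of the lists drawn ran from -1.83 for the amino acid response to 3.92 for MHC class II. Of the 14 MHC class II genes 4 had under 1 CPM in control.

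Most listed genes of mature monocytes and macrophages rose. The granule list also holds genes of immature cells and was not divided by maturity. Of its 12 genes 9 rose and 2 fell. LYZ, the antibacterial enzyme lysozyme, stood at 366, 390.4 and 379.7 CPM in the control libraries and 6519.9, 6746 and 6524 CPM at 1 µM, a 17.4-fold rise. Its level at 1 µM was 8248 TPM, where the 3 highest transcripts were EEF1A1, MT-CO1 and MT-CO3 at 35022, 32615 and 15922 TPM. CTSG, the protease cathepsin G, stood at 209, 204 and 210.1 CPM in the control libraries and 20.3, 20.5 and 22 CPM at 1 µM. It fell 9.94-fold with no overlap (edgeR adjusted p = 2.3e-26), and MPO, myeloperoxidase, fell from 20.6 ± 0.397 to 3.87 ± 1.1 CPM. Other granule proteins of the serine protease family went the other way: PRTN3 rose 2.38-fold, AZU1 1.31-fold and ELANE 1.13-fold. BPI, a granule protein that binds endotoxin, rose from 1.17 ± 0.32 to 11.4 ± 1.4 CPM.

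Of 9 tested S100 genes 3 had under 1 CPM in control. Of the 9, 7 rose and 1 fell, with the pair that forms calprotectin in front: S100A9 went from 0.51 ± 0.103 to 29.7 ± 0.892 CPM and S100A8 from 0.338 ± 0.082 to 12.1 ± 2.22 CPM. S100A4 was the highest of them per length, at 523 TPM, and rose 2.01-fold. Of the 9 Fc receptor genes, which bind antibody, 8 rose and 1 fell. As many as 4 of the 9 had under 1 CPM in control, so this count is descriptive. FCGR2A and FCGR2B, an activating and the inhibitory low-affinity IgG receptor, rose 3.56- and 11.5-fold. FCGR1A, the high-affinity IgG receptor, stood at 29.7, 27.9 and 29.7 CPM in control, 48.4, 47.1 and 47.8 CPM at 0.5 µM and 26.7, 27.7 and 22.5 CPM at 1 µM. It fell at 1 µM against control by 0.18 on the log2 scale (edgeR adjusted p = 0.029) but was above control at 0.5 µM. The fall was no longer called in limma-trend or without control replicate 1 or 3 or 1 µM replicate 3 (-0.17 to -0.10). FCAR, the IgA receptor, went from 0.675 ± 0.295 to 8.04 ± 0.559 CPM, and FCGRT, which recycles IgG, from 18 ± 1.36 to 115 ± 3.83 CPM.

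Receptors by which macrophages recognize and take up material rose in 28 of 32 tested cases and fell in 2 (37 listed). As many as 14 of the 32 had under 1 CPM in control, so their median of 2.91 is descriptive. For innate recognition, TLR2 rose from 56.7 ± 1.73 to 247 ± 11.9 CPM, TLR4 from 43.1 ± 2.92 to 131 ± 3.54 CPM and TLR8, a sensor of single-stranded RNA, from 1.13 ± 0.0812 to 24.4 ± 2.32 CPM, while TLR7, its relative, had 5.21 and 4.4 CPM and did not pass. CD14, the endotoxin coreceptor, went from 0.233 ± 0.0681 to 7.08 ± 1.42 CPM, and FPR1, a receptor for bacterial peptides, from 0.0478 ± 0.0827 to 5.65 ± 1.06 CPM. For uptake of particles, the scavenger receptor CD36 rose 13.9-fold and CD68, the highest of the list per length, 4.16-fold. CD163, a hemoglobin scavenger of mature macrophages, stayed at 0.169 CPM at 1 µM and did not pass.

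For the uptake of dying cells, MERTK and AXL are receptor kinases that bind phosphatidylserine through the bridging ligands GAS6 and PROS1, and MFGE8 bridges to an integrin. AXL stood at 15.1, 11.8 and 12.5 CPM in control, 50.7, 50.8 and 53 CPM at 0.5 µM and 125, 113 and 129 CPM at 1 µM. Each dose lay above the one before with no overlap, and the change against control was 3.21 ± 0.0896 on the log2 scale (edgeR adjusted p = 3.05e-21). MFGE8 went from 0.511 ± 0.0721 to 19.4 ± 1.61 CPM, ITGAV of its receptor rose 2.23-fold and PROS1 rose 2.73-fold. GAS6 fell 1.15-fold and TYRO3, the remaining kinase of the family, fell from 4.77 ± 0.258 to 3.15 ± 0.255 CPM, so these 2 were the members that moved against the list.

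Of 10 tested integrin genes 8 rose and 2 fell. In the beta2 family, ITGAM (CD11b) stood at 7.78, 7.38 and 8.0 CPM in the control libraries and 139, 135 and 139 CPM at 1 µM. The treated values were all above the control values, a 17.9-fold rise (edgeR adjusted p = 5.1e-26). ITGAX rose 8.53-fold and the shared chain ITGB2 2.29-fold, while ITGAL (CD11a), which is the highest of the list per length, fell 1.09-fold, a call not made in limma-trend on TPM. Of the 7 NADPH oxidase genes, which make superoxide, 5 rose and 1 fell. NCF1, its p47 subunit, rose from 63.9 ± 0.453 to 603 ± 31 CPM, although NCF1 has near-identical pseudogenes that can share its reads, CYBB, the catalytic chain, rose from 64.5 ± 2.06 to 411 ± 7.98 CPM, and the GTPase RAC2 fell 1.34-fold. Of 12 tested complement genes 9 rose and 2 fell, and 4 of the 12 had under 1 CPM in control. C3 went from 6.06 ± 1.09 to 232 ± 8.9 CPM and CFP, properdin, from 1.71 ± 0.254 to 26.3 ± 1.14 CPM, while CD55, which protects cells from complement, fell from 60.7 ± 0.809 to 20.5 ± 3.19 CPM.

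Most genes of antigen presentation rose. Of 15 listed MHC class II genes 14 were tested, and 4 of these had under 1 CPM in control. Of the 14, 11 rose and 1 fell. CIITA, their coactivator, rose from 15.6 ± 0.86 to 99.9 ± 1.27 CPM, and the invariant chain CD74 from 157 ± 4.32 to 694 ± 10.2 CPM. HLA-DMA and HLA-DMB, which load peptide, rose 38.7- and 39.3-fold to 71.1 and 65.4 CPM. HLA-DRA stood at 9.51, 9.38 and 12.1 CPM in control, 236, 235 and 238 CPM at 0.5 µM and 167, 158 and 169.9 CPM at 1 µM, so the treated groups were both above control and 1 µM was below 0.5 µM. None of the 3 RFX factors that hold CIITA at these promoters was called higher with it, and RFXAP fell 2.6-fold (edgeR adjusted p = 3.52e-13). In MHC class I 12 of 15 genes rose and 1 fell. HLA-B and HLA-C rose 2.8- and 3.23-fold and NLRC5, the class I coactivator, 1.97-fold. B2M, the light chain, rose 1.1-fold, and PSMB8, a subunit of the immunoproteasome, fell 1.18-fold.

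Among 16 tested cytokine and chemokine genes of 25 listed, 11 rose and 2 fell, and 4 had under 1 CPM in control. CXCL8, interleukin-8, stood at 4.07, 2.36 and 2.35 CPM in control, 55.3, 52.5 and 59.2 CPM at 0.5 µM and 97.9, 88.2 and 83.9 CPM at 1 µM, and the 3 groups did not overlap. TNFSF10 (TRAIL) rose 5.65-fold and CCL23 9.12-fold, while TNF fell from 48 ± 1.58 to 22.4 ± 2.44 CPM and OSM from 4.45 ± 0.114 to 1.84 ± 0.597 CPM. CCL5, the highest of the list per length, had 76.4 and 77.8 CPM and did not pass.

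Of 34 tested myeloid transcription factors (41 listed) 16 rose and 13 fell, against 39.3% of all genes higher and 36.6% lower. Of 16 factors of monocytes and macrophages 10 rose and 1, KLF6, fell (log2 fold change -0.21, a call lost without control replicate 1, at -0.18, and in limma-trend). PRDM1 rose from 5.9 ± 0.445 to 38 ± 3.29 CPM, CEBPB from 20.3 ± 0.555 to 57.8 ± 1.71 CPM, IRF5 2.68-fold and SPI1 (PU.1) 1.53-fold. Of 5 factors of dendritic cells 3 rose, among them SPIB from 4.54 ± 0.406 to 18.5 ± 1.26 CPM, and 2 fell, BATF3 from 1.47 ± 0.0926 to 0.174 ± 0.0585 CPM and TCF4 from 21.3 ± 1.44 to 10.7 ± 2.12 CPM (not called in limma-trend on TPM). In the group of progenitors and granulocytes 10 of 13 fell and 3 rose, CEBPA 1.36-fold, RUNX2 1.65-fold and CEBPE from 0.26 ± 0.0916 to 1.39 ± 0.576 CPM. MYB stood at 628, 612 and 623 CPM in the control libraries and 318, 313 and 313 CPM at 1 µM, every treated value below every control value (log2 fold change -0.98 ± 0.0373, edgeR adjusted p = 2.59e-18). GATA2 fell 2.61-fold, LYL1 2.49-fold, GFI1 1.39-fold and RUNX1 1.3-fold.

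Targets of the KMT2A fusion fell in 15 of 21 tested cases and rose in 2 (median -0.55). HOXA9 fell 1.53-fold and its partner MEIS1 1.21-fold, PBX3 fell 1.87-fold, and DOT1L, the histone methyltransferase the fusion recruits, fell 2.14-fold. BCL11A fell from 80 ± 3.6 to 17.7 ± 1.69 CPM and MEF2C 2.05-fold. HOXA3 rose, from 7.07 ± 1.22 to 11.5 ± 2.64 CPM, and HOXA10 had 27.6 and 25.8 CPM and did not pass. The library values for HOXA9 were 151, 152 and 154 CPM in the control libraries and 100.3, 102 and 96.5 CPM at 1 µM, without overlap but at under 2-fold.

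FLT3 itself stood at 397, 403 and 386 CPM in the control libraries and 548, 541 and 533 CPM at 1 µM. All treated values were above all control values, a log2 fold change of 0.45 ± 0.0318 (edgeR adjusted p = 1.19e-12). The counts give gene totals and do not tell the mutated from the normal transcript. Genes downstream of FLT3 did not move as 1: of 34 tested, 10 rose and 14 fell. Among STAT5 targets, IL2RA rose from 3.91 ± 0.444 to 51.6 ± 3.53 CPM, SOCS2 fell 2.09-fold and CISH (61.1 and 57.5 CPM) did not pass. Among genes fed by MAPK signaling, the phosphatase DUSP4 went from 0.571 ± 0.148 to 7.83 ± 0.214 CPM and PHLDA1 rose 9.44-fold, while ETV4 fell from 15.6 ± 1.29 to 1.92 ± 0.666 CPM, ETV5 2.71-fold and SPRED1 2.87-fold. DUSP6, often used to read this pathway, had 18.9 and 18.1 CPM and did not pass.

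Of 33 tested surface receptor genes of AML cells, each symbol counted in 1 copy, 29 rose and 3 fell, none of the falls reaching 2-fold. Of the 33, 7 had under 1 CPM in control. Of the therapy targets, CD33 rose 1.33-fold, CD38 from 20.6 ± 1.39 to 176 ± 3.09 CPM, CD44, the highest per length, 2.85-fold, CD47, the signal that restrains phagocytosis, 1.54-fold, HAVCR2 (TIM-3) from 1.1 ± 0.0669 to 12.9 ± 1.39 CPM and CLEC12A from 0.357 ± 0.0729 to 4.97 ± 0.842 CPM, while CD70 did not pass. IL3RA (CD123) fell 1.29-fold, its 2 identical lines in the table standing for the copies on both sex chromosomes. Of the growth factor receptors, KIT stood at 0.926, 1.29 and 0.823 CPM in control, 8.0, 7.92 and 8.7 CPM at 0.5 µM and 17.6, 16.7 and 17.3 CPM at 1 µM, each group above the one before, and CSF1R rose 5.08-fold. LILRB3, an inhibitory receptor of myeloid cells, went from 0.178 ± 0.179 to 7.72 ± 0.781 CPM. Among 19 ligands for T and NK cells 10 rose and 7 fell: the costimulator CD80 rose from 1.91 ± 0.172 to 22.8 ± 1.66 CPM and CD86 2.05-fold, whereas of NKG2D ligands ULBP1 fell from 13.5 ± 1.24 to 0.512 ± 0.125 CPM and MICA rose 1.64-fold. PVR and NCR3LG1, ligands of other NK receptors, fell 2.5- and 2.18-fold.

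Interferon-stimulated genes rose in 48 of 51 tested cases and fell in 2 (52 listed, median 1.9), with 9 of the 51 under 1 CPM in control. Many of them are switched on through the interferon-stimulated response element. Its core, TTTCNNTTT on either strand, stood in 34 of 57 RefSeq promoters of the 38 matched genes (59.6%), against 8.16% for all genes tested and 10.5% for the whole table. The 250 bases before the start of IFI44L (chr1:78620198-78620447, plus strand) and BST2 (chr19:17405631-17405880, minus strand) are shown because they are the rule-named members of largest rise with the element in this stretch, in capitals as AAANNGAAA, its reverse complement. In BST2 a pair of overlapping copies merges into 1 run of capitals:
IFI44L: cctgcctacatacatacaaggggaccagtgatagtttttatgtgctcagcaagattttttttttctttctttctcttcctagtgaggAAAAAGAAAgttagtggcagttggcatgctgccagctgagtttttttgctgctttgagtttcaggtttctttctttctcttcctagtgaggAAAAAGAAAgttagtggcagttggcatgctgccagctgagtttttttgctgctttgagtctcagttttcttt
BST2: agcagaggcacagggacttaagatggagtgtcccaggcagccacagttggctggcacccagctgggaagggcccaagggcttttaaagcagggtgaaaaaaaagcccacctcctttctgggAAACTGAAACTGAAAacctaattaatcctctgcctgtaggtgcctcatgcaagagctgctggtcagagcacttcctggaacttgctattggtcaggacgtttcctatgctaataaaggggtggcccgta

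IFI44L stood at 0.247, 0.358 and 0.235 CPM in control, 3.85, 3.38 and 2.52 CPM at 0.5 µM and 11, 12.6 and 12.4 CPM at 1 µM. The 3 groups did not overlap, and the change against control was 5.39 ± 0.279 on the log2 scale (edgeR adjusted p = 1.77e-15). GBP2 and GBP4, which attack vacuoles of microbes, went from 1.62 ± 0.292 to 52.5 ± 5.45 CPM and from 0.634 ± 0.0929 to 25.8 ± 0.407 CPM, MX1, which blocks viral replication, from 1.43 ± 0.116 to 25.2 ± 0.629 CPM, and BST2, which tethers budding virus and is the highest of the list per length over the 6 libraries, rose 2.4-fold. Components of the pathway itself rose as well: IRF9 3.75-fold, STAT2 2.51-fold and the receptor chain IFNAR2 2.19-fold. Of the ISG15 system, which tags proteins, ISG15 and its activating enzyme UBA7 rose 2.41- and 4.12-fold while USP18, which removes the tag, had 2.06 and 1.36 CPM and did not pass. The members that fell were XAF1, which promotes apoptosis, from 187 ± 4.28 to 128 ± 4.17 CPM, and IFITM2 by 0.33 on the log2 scale (not called in limma-trend on TPM), while its neighbors IFITM1 and IFITM3 rose to 2.42 and 5.46 CPM.

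Of 13 tested genes of nucleic acid sensing, which can start such a response, 9 rose and 1, STING1, fell. STING1, the adaptor through which cGAS signals, stood at 155, 151 and 157 CPM in control, 109.6, 112 and 109.8 CPM at 0.5 µM and 75.2, 73.3 and 82.7 CPM at 1 µM. It fell at each dose with no overlap, by 1.0 on the log2 scale against control (edgeR adjusted p = 6.23e-16). CGAS, the DNA sensor that feeds it, rose from 50 ± 2.29 to 83.8 ± 1.47 CPM, and IFI16 1.38-fold. On the RNA side RIGI rose from 9.77 ± 1.06 to 31.1 ± 2.67 CPM, IFIH1 from 17.9 ± 0.882 to 51.5 ± 3.67 CPM, DHX58 from 0.884 ± 0.227 to 5.18 ± 0.747 CPM and the adaptor MAVS 1.19-fold. EIF2AK2 (PKR) rose 2.84-fold. IRF7 rose 1.88-fold, and IRF3 had 59 and 66.2 CPM and did not pass. Of 11 inflammasome genes 9 rose and 1 fell: the sensors NLRP1, AIM2 and NLRC4 rose 7.13-, 6.07- and 5.3-fold and CASP1 2.16-fold, NLRP3 had 77.7 and 72 CPM and did not pass here but was called lower in 7 of 13 alternatives, among them DESeq2 (-0.12) and without 1 µM replicate 1 or 2 (-0.14 and -0.16), and NLRP12, which dampens inflammation, fell from 14.3 ± 1.18 to 3.66 ± 0.551 CPM.

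The amino acid response held 5 of the 8 largest falls named above. ATF4 turns on these genes when uncharged tRNA activates the kinase GCN2, and they make, import and charge amino acids. Of 44 listed genes 43 were tested, 38 fell and 2 rose, 29 falling at least 2-fold (median -1.83). For serine synthesis, PHGDH, the first enzyme, stood at 163, 174 and 167 CPM in the control libraries and 6.8, 4.95 and 7.53 CPM at 1 µM, a 26.1-fold fall, PSAT1, the second, fell 16.6-fold and PSPH, the last, 4.45-fold. The mitochondrial one-carbon enzymes SHMT2, MTHFD2 and ALDH1L2 fell 4.03-, 2.18- and 15.2-fold. ASNS, asparagine synthetase, fell 8.67-fold and the transporter SLC7A1 6.81-fold. ATF4 mRNA itself fell from 427 ± 19.8 to 206 ± 11.7 CPM. The kinase gene EIF2AK4 (GCN2) had 63.7 and 66.4 CPM and did not pass.

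The members that rose were SLC7A11 (1.24-fold), the cystine importer, which NRF2 also controls, and NUPR1, a stress-induced chromatin protein, from 4.18 ± 0.354 to 13.2 ± 0.243 CPM. The C/EBP-ATF element TGATGNAA, through which ATF4 acts, stood on either strand in 13 of 55 RefSeq promoters of 34 matched genes (23.6%), against 2.04% for all genes tested and 3.62% for the whole table. CHAC1, which degrades glutathione, stood at 19.4, 20.8 and 19 CPM in control, 0.296, 0.231 and 0.0763 CPM at 0.5 µM and 0.699, 0.319 and 1.4 CPM at 1 µM, and the 250 bases before its start (chr15:40953221-40953470, plus strand) hold the element as its reverse complement, in capitals:
CHAC1: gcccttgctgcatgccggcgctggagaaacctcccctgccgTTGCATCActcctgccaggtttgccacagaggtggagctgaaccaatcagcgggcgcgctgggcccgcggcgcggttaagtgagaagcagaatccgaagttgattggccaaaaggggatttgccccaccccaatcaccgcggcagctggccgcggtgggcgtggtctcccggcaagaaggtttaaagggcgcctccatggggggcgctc

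Of 20 cytosolic aminoacyl-tRNA synthetase genes, the enzymes that charge tRNA, 19 fell and 1 rose. GARS1 stood at 442, 428 and 416 CPM in the control libraries and 89.5, 95.6 and 91.8 CPM at 1 µM, far apart between groups (log2 fold change -2.22 ± 0.045), and AARS1 and IARS1 fell 4.56- and 3.46-fold. QARS1 rose, by 0.22 on the log2 scale. In the MYC network 3 of 10 genes rose and 5 fell. MYC fell from 637 ± 3.6 to 224 ± 6.7 CPM, while MXD1 and MXD4, which compete with MYC for its partner, rose 1.91- and 2.39-fold. Of 28 ribosome synthesis genes 26 fell and none rose. UTP20 and NOP58 of rRNA processing fell 3.25- and 2.5-fold, and NPM1, the highest of the list per length, stood at 1795, 1872 and 1785 CPM in the control libraries and 985, 1007 and 945 CPM at 1 µM. Of 79 tested genes of cytosolic ribosomal proteins 45 fell and 7 rose, with a median of -0.12 on the log2 scale. In polyamine metabolism 7 of 11 genes fell and 3 rose, with ODC1, the first enzyme of synthesis, falling from 169 ± 3.52 to 36.7 ± 0.756 CPM and SAT1, the enzyme of breakdown, rising from 52 ± 2.94 to 317 ± 12.3 CPM.

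Iron and heme genes rose in 15 of 21 tested cases and fell in 2. HMOX1, which opens heme, stood at 0.864, 0.358 and 0.999 CPM in control, 29.5, 30.2 and 29.1 CPM at 0.5 µM and 138, 151 and 144 CPM at 1 µM. The groups stepped up with dose and did not overlap, a log2 fold change of 7.55 ± 0.107 against control (edgeR adjusted p = 1.91e-27). FTH1, the heavy chain of the iron store ferritin, stood at 551, 551 and 562 CPM in control, 2256, 2328 and 2279.7 CPM at 0.5 µM and 4068, 3938 and 4006 CPM at 1 µM, and its light chain FTL rose 4.2-fold, to 10901 TPM. BLVRA, which reduces the biliverdin that HMOX1 makes, rose from 1.08 ± 0.147 to 7.22 ± 0.335 CPM. TFRC, the transferrin receptor, whose mRNA iron normally destabilizes while ferritin translation is raised, also rose, 1.64-fold. Among other targets of the factor NRF2, GCLM rose 1.47-fold and SRXN1 1.45-fold, and TXNRD1 fell 1.14-fold. Metallothioneins, which bind zinc and copper, fell in all 5 tested cases, MT1G from 13.1 ± 1.31 to 1.81 ± 0.722 CPM and MT2A from 9.51 ± 1.52 to 2.87 ± 0.422 CPM. Of their zinc partners 1 fell and 1, the zinc-sensing factor MTF1, rose (log2 fold change 0.17), a call lost in 9 of 13 alternatives, DESeq2 and limma-trend included, and without control replicate 2 or 3 or 1 µM replicate 1 or 3 (0.11 to 0.15). Close copies among metallothioneins can share reads.

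Of 42 listed lysosome genes 41 were tested and all of these rose (median 1.29, background 39.3% higher). CTSD, cathepsin D, stood at 104, 102 and 109 CPM in control, 769, 729 and 783 CPM at 0.5 µM and 1317, 1220.2 and 1309 CPM at 1 µM. Each group was above the one before, a 12.2-fold rise against control (edgeR adjusted p = 3.49e-29). PSAP, the precursor of the saposins, rose 8.02-fold, from 158 to 1275 TPM. TFEC, a relative of the lysosomal regulator TFEB found in myeloid cells, rose 8.83-fold and TFEB itself 1.44-fold. CTSC, which activates granule proteases, had the smallest rise, 1.14-fold.

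In lipid handling, genes of sterol export rose and SREBF1 fell. Of 21 tested genes 17 rose and 3 fell. LXR senses oxysterols and switches on both sterol export and, through SREBF1, fatty acid synthesis. APOE stood at 0.432, 0.716 and 0.823 CPM in control, 59.6, 67.8 and 58.3 CPM at 0.5 µM and 126, 131 and 127 CPM at 1 µM, APOC1 rose 11.3-fold and the exporter ABCA1 4.87-fold, and CYP27A1, which makes oxysterol, went from 1.47 ± 0.322 to 151 ± 0.892 CPM. SREBF1 fell 2.99-fold, and SCD, the desaturase downstream, stood at 776, 772 and 752 CPM in the control libraries and 130.3, 139.5 and 133 CPM at 1 µM (edgeR adjusted p = 2.94e-27). PLIN2, which coats lipid droplets, rose 11.7-fold and FABP5 fell 1.93-fold. Of 20 cholesterol synthesis genes 12 fell and 4 rose: CYP51A1 fell 2.06-fold, and the sterol carrier STARD4 rose 2.5-fold.

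Glucose genes also moved both ways, 17 of 34 tested rising and 10 falling, against 39.3% of all genes higher and 36.6% lower. Of hexokinases, HK3 of myeloid cells went from 0.0392 ± 0.0679 to 6.74 ± 0.836 CPM while HK2 fell 2.1-fold. FBP1 of gluconeogenesis rose from 0.904 ± 0.107 to 11.8 ± 1.21 CPM, and PFKFB3 and PFKFB4, which stimulate glycolysis, rose 3.55- and 3.2-fold. GAPDH and LDHA fell 1.29- and 1.85-fold. VEGFA, the vascular growth factor, stood at 416, 438 and 432 CPM in the control libraries and 43.2, 41.6 and 40.5 CPM at 1 µM, with no overlap (edgeR adjusted p = 1.47e-27), whereas ADM and NDRG1 of the same hypoxia group rose. In oxidative phosphorylation, 12 of 13 mitochondrially encoded genes rose and none fell, MT-ND4 leading at 1.97-fold, whereas of 26 nuclear genes 8 rose and 10 fell. TFAM, the factor that packs and transcribes mitochondrial DNA, fell from 144 ± 3.78 to 80 ± 4.17 CPM.

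Of 32 chaperone genes 9 rose and 19 fell. Of 14 cytosolic and mitochondrial members 12 fell and none rose, HSPA9 2.2-fold, and of 18 of the endoplasmic reticulum 9 rose and 7 fell. XBP1, a regulator of the latter, fell from 579 ± 10.0 to 144 ± 6.99 CPM while CRELD2 and CALR rose 2.55- and 1.53-fold. Of 14 tubulins 9 fell and 4 rose, TUBA1B 1.73-fold down. Of 21 chromatin genes 15 fell and 5 rose. UHRF1 and DNMT1, which maintain DNA methylation, fell 2.11- and 1.45-fold, EZH2 fell 2.08-fold and its relative EZH1 rose 1.27-fold. Among genes often followed in senescence 12 of 20 tested rose and 8 fell: LMNB1 fell from 336 ± 7.04 to 184 ± 7.96 CPM and HMGB2 from 219 ± 5.11 to 75.8 ± 5.06 CPM.

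The 1 µM group was set directly against the 0.5 µM group to ask what the higher dose added. In edgeR's test 2390 of 12355 genes (19.3%) differed, 1122 higher at 1 µM (9.08%) and 1268 lower (10.3%), and 175 (1.42%) differed at least 2-fold, 136 of them higher (1.1%) and 39 lower (0.316%). The median size of the log2 difference was 0.13, against 0.51 for 1 µM against control. Values for 0.5 µM against control share the control libraries with those above and are given only side by side. The largest rises with dose by the naming rule were in PALD1, MFGE8, HMOX1, IFI44L, DCANP1 and A4GALT, and the largest falls in FCAR, PLXND1, CTSG, NAV3, F13A1 and LILRB2. PALD1, a protein with a phosphatase domain, stood at 0.741, 1.0 and 0.999 CPM in control, 2.07, 2.31 and 1.83 CPM at 0.5 µM and 14.5, 16.9 and 17.1 CPM at 1 µM. F13A1, a clotting factor chain made by monocytes, stood at 9.69, 10.2 and 8.41 CPM in control, 19.3, 16.5 and 19.2 CPM at 0.5 µM and 8.71, 7.43 and 10 CPM at 1 µM. FCAR differed between the doses by -1.44 on the log2 scale, PLXND1, a semaphorin receptor, by -1.26, and LILRB2, an inhibitory receptor for MHC class I, by -0.90.

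**Figure D3:**
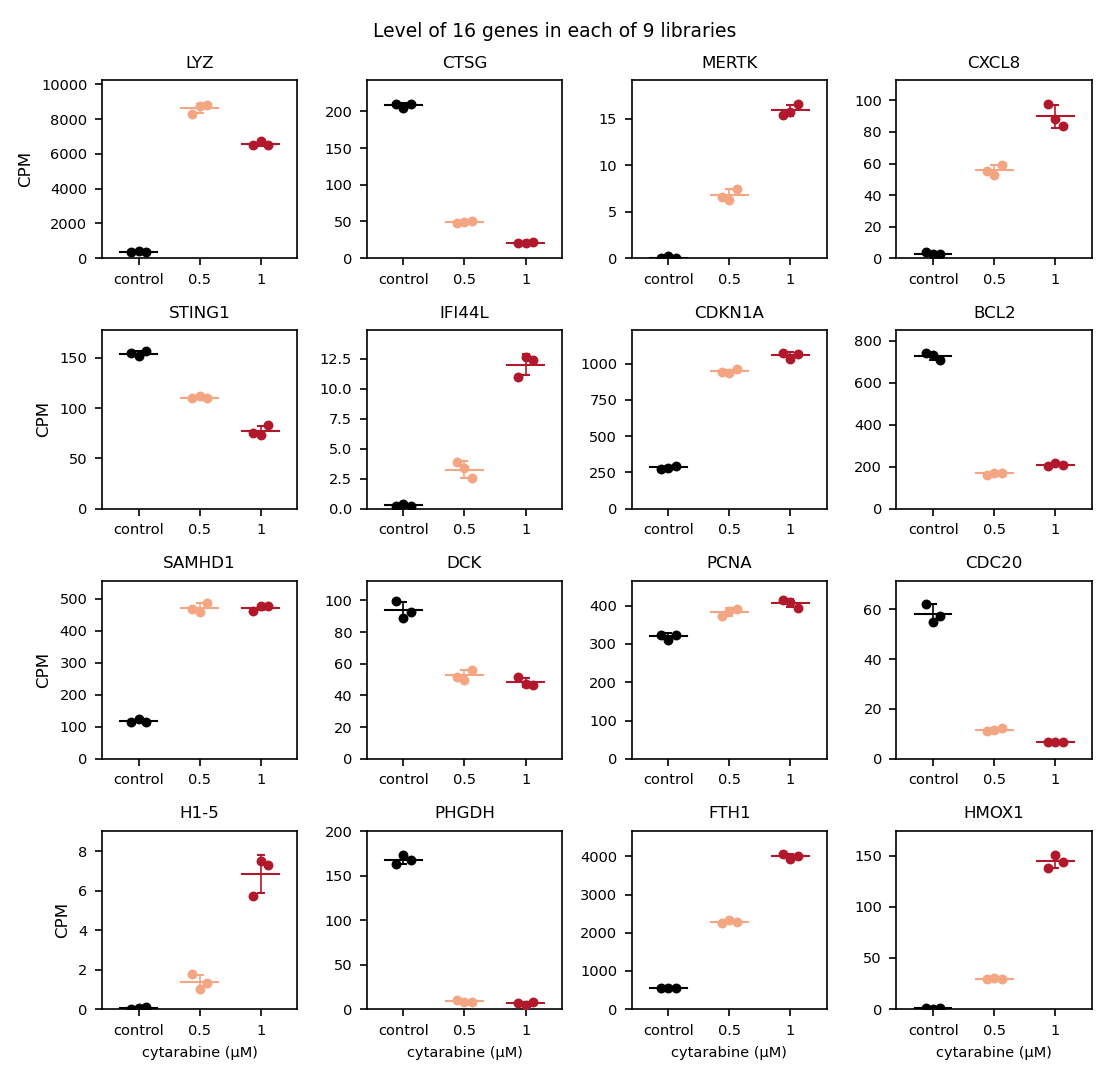
Each panel shows 1 gene, with CPM on the y axis from 0 and the groups control, 0.5 µM and 1 µM cytarabine on the x axis; points are the 3 libraries of a group, horizontal lines their means and bars the SD. HMOX1 and FTH1 step up from group to group, STING1 and CTSG step down, and LYZ is highest at 0.5 µM.

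Granule genes were lower at the higher dose: 9 of 12 fell between 0.5 and 1 µM and none rose, with a median of -0.43 on the log2 scale against -0.01 for all genes. LYZ stood at 8309, 8761 and 8801 CPM at 0.5 µM and 6519.9, 6746 and 6524 CPM at 1 µM, a difference of -0.39 ± 0.0269. CTSG differed by -1.23 ± 0.0611 and AZU1 by -0.53 ± 0.0379. RNASE2, which had 78.2 CPM in control, had 125 and 75 CPM at the doses. S100A8 and S100A9 were also lower at 1 µM, with -0.49 and -0.59. By contrast, 28 of 51 interferon genes were higher at 1 µM and 2 lower (median 0.39), MX1 by 1.36 ± 0.121 and IFIT1 by 1.38 ± 0.264.

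Replication-dependent histones rose with dose in 36 of 53 cases and fell in none (median 1.4), H1-5 by 2.31 ± 0.254 (edgeR adjusted p = 2.22e-07). As many as 39 of the 53 had under 1 CPM in control and passed the filter through the treated groups. This count and median are therefore descriptive, and they cover only transcripts caught as poly(A) RNA. Of the p53 targets 13 were higher at 1 µM and 1 lower: GDF15 by 1.25 ± 0.189, RRM2B by 0.34 ± 0.0345 and MDM2 by 0.30 ± 0.0339, with CDKN1A at 948 and 1058 CPM. Mitosis genes were lower in 24 of 59 cases and higher in none, CDC20 differing by -0.79 and CENPA by -0.75, and ribosome synthesis genes lower in 19 of 28 and higher in none. Amino acid genes divided between the doses: 11 were higher at 1 µM and 7 lower, among them CHAC1, higher by 1.94 ± 0.656, ATF3, higher by 1.28 ± 0.179, and STC2, which differed by -1.55. STC2 was close to silent at 1 µM, so its difference depends on few counts. SAMHD1 was at 471 ± 15 and 473 ± 8.57 CPM, a difference of 0.00 ± 0.035, and DCK at 52.6 and 48.4 CPM. Neither passed between doses.

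**Figure D4:**
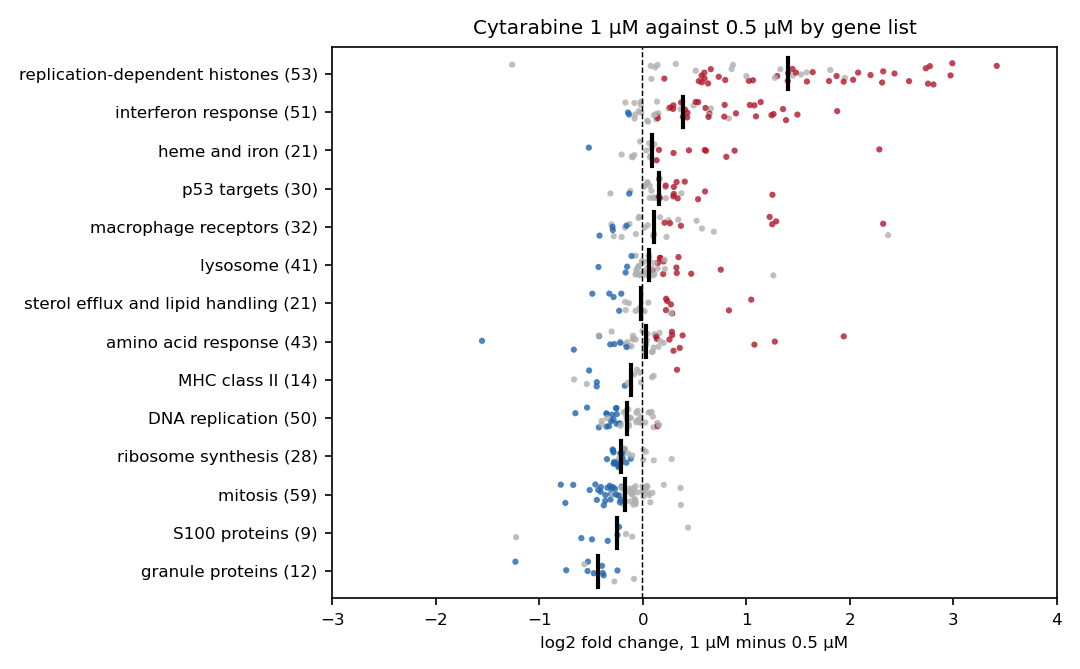
Each point is 1 tested member of a gene list, with the log2 fold change, 1 µM minus 0.5 µM, on the x axis; red and blue members passed an adjusted p of 0.05, gray ones did not, black bars are list medians and the dashed line is the median of all genes (-0.01). Histone and interferon genes lie mostly to the right of the line and granule genes to its left, with medians of 1.4, 0.39 and -0.43. Most of the histone genes drawn had under 1 CPM in control and passed the filter through the treated groups, so their median is descriptive.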

How the data were processed

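RNA from Molm-13 cells was sequenced as poly(A) libraries on an Illumina HiSeq2500, per the labels' protocols. The deposited table gives estimated counts per gene made by the authors. HISAT2, StringTie 1.3.1 and fastp 0.18.0 are named in the submitters' processing notes, with edgeR and DESeq2 and no roles. Neither the genome build nor the strand setting is given there, so overlapping and antisense genes cannot be told apart. The authors' deposited TPM values were used for levels compared between genes and for 1 alternative. In each library 9.62 to 11.3% of the counts were more than 0.01 from a whole number, and all were rounded before testing. Genes named by pathway and transcription factor family in the closing section follow the annotation columns of the deposited table.

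Genes kept by filterByExpr (minimum count 10, minimum total 15; 12355 of 20375) were scaled by TMM and fitted with edgeR 4.0.16's quasi-likelihood model in R 4.3.3, with 1 fit over 15 libraries in 5 groups (10 residual degrees of freedom) and no replicate block. Contrasts were 1 µM minus control and 1 µM minus 0.5 µM, with Benjamini-Hochberg adjustment over all genes tested and calls at an adjusted p under 0.05. CPM use TMM-scaled totals, and fold changes are from counts. The standard error of a log2 fold change was taken as its size over the square root of the test's F statistic. Gene lists got no test of their own and are described by the per-gene calls. The members and lists were chosen with earlier results of these data known. Named genes were FLT3, the 8 largest rises and falls (at least 10 CPM in a group, no overlap), of each list the 3 called members of largest change at 5 CPM or more, the largest in the opposite direction and the highest by TPM, and the 6 largest changes each way between doses. Further members were named by their role after their values were seen, and not every gene the rule picks is described. The scripts were tested on simulated data. Counting intervals (95%) and floors cover counting error only. Promoters came from RefSeq's GRCh38.p14 table, in which 9934 of 12336 symbols tested matched, and a gene can have several.

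Alternatives were DESeq2 1.42.0 and its size factors, no filter on low counts, the 2 groups alone, a replicate block, leaving out each library, limma 3.58.1 (voom with quality weights, and limma-trend on log2(TPM + 1)) and a test against a 2-fold change.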

Additional observations from a re-analysis of the deposited data

How the results depend on the processing

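Between 89.2% and 99.6% of the 9375 calls against control were kept under the 13 alternatives that test for any difference, and a call changed sign for none except 6 genes under limma-trend on log2(TPM + 1). Leaving out 1 library gave 8983 to 9209 calls. edgeR's glmTreat, a test against a 2-fold change, left 1421 genes higher and 604 lower than control, and 12 higher and 0 lower between the doses (90 and 22 at an unadjusted p under 0.05). Without that threshold 2390 genes differed between the doses in edgeR, and limma-trend gave 716 higher and 638 lower. No pairing by replicate number was seen: same-numbered control and 1 µM libraries deviated together with correlations of 0.00402, 0.0182 and 0.0241. Correlations this near 0 cannot tell whether libraries shared a culture, day or batch. With the replicate block 4871 genes were higher and 4546 lower than control, with 1133 and 1289 between the doses. Not every library correlated best with its own number.

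Among the 382 genes picked by the rule or named in the text, and among the list medians, values that crossed 0 were few. Under limma-trend CARD8 stood at -0.0357, CCL5 at -0.0614, CCNE2 at 0.00604, DUSP6 at 0.135 and ORC4 at -0.253 on the log2 scale, and the median of the T and NK cell markers at 0.0408. Without the filter on low counts CCL5 stood at -0.0219. Without 1 library CCL5 ran from -0.0142 to 0.0865 and CD79A from -0.466 to 0.623. With the 2 groups alone the median of the T and NK cell ligands was -0.105, against 0.33 in the main fit. Members that the filter of the smaller fit drops leave this median, so the 2 values may cover different genes. ORC4 thus rose in edgeR and fell in limma-trend. HUS1, IFITM2 and ITGAL kept their direction and lost their call in limma-trend. The cause was not tested. ATR was called lower in 4 of 13 alternatives, BCL2L1 lower in 2 and IRF3 higher in 3. Fold changes against a group near 0 depend on few counts: MERTK and HK3 are therefore given by their levels, and the fitted values of IFI44L and HMOX1 against control, and of CHAC1 and STC2 between the doses, share this limit.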

Other observations

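Pathway and transcription factor family labels in the deposited table allowed counts beyond the lists, named here after their values were seen. Of 34 RNA polymerase genes 26 fell and 1 rose (median log2 fold change -0.49), and of 101 genes of transport through the nuclear pore 76 fell and 9 rose (-0.47). Of 130 spliceosome genes 84 fell and 15 rose (-0.25), and of the 130, 40 were lower at 1 µM than at 0.5 µM and 1 was higher. Of 33 genes of arachidonic acid metabolism, which makes prostaglandins and leukotrienes, 26 rose and 2 fell (1.12), and of 16 genes of glycosaminoglycan degradation 11 rose and 2 fell (1.00). Of 18 genes of drug metabolism by cytochrome P450 14 rose and none fell (0.81). Background shares were 39.3% higher and 36.6% lower.

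Among transcription factors, 8 of 9 IRF genes rose and none fell, while 8 of 10 E2F genes fell and 1 rose. Of 12 THAP genes 7 fell and none rose, and of 19 ETS genes 10 fell and 5 rose. Of 468 zinc finger genes of the C2H2 family 206 were higher and 111 lower, against the same background. WT1, a zinc finger factor often overexpressed in AML, fell from 40.6 ± 2.3 to 5.52 ± 0.55 CPM, and PRDM8 from 10.2 ± 1.03 to 2.39 ± 0.912 CPM. HIC1, a repressor that p53 induces, rose from 2.19 ± 0.56 to 11.7 ± 1.38 CPM, ZFP36L1, a protein that destabilizes mRNA, from 4.8 ± 0.268 to 22.1 ± 0.60 CPM, and RUNX3 from 22.4 ± 0.875 to 79.1 ± 5.87 CPM.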
